A study of Rattus norvegicus with 15 samples.

Results

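The genes described here take a fatty acid from the blood to its activated form in the liver cell: 2 uptake genes (Cd36 and Slc27a2), 4 binding genes (Fabp1, Fabp2, Fabp4 and Dbi) and 4 long-chain acyl-CoA synthetases (Acsl1, Acsl3, Acsl4 and Acsl5). They were chosen by name, by taking every probe set whose current or former gene symbol on the array platform was one of these 10, out of 14217 genes with a probe set of 1 symbol. That gave 13 probe sets, 1 for each of 8 genes, with 3 for Acsl1 and 2 for Acsl5. The livers came from male Sprague Dawley rats (Charles River) that were 7 weeks old at the start and were kept on a diet with 59% of energy from fat. The rats received daily, for 6 weeks and by gavage, either 0.5% methylcellulose (vehicle) or PF-04923503, named in the series title as an inhibitor of acetyl-CoA carboxylase (ACC), at 10 mg/kg or 30 mg/kg. Each of the 3 groups had 5 liver samples, each on 1 Affymetrix array read out as log2 expression values. All groups shared the diet and the gavage, so a comparison reads the compound on top of fat feeding, and no group on another diet was compared. Whether every sample is a separate rat is not said in the labels, and the p-values then cover only the spread between samples, which may be technical. The number of arrays limits the precision.

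Fatty acids enter hepatocytes with the help of membrane proteins, are carried in the cytosol by fatty acid binding proteins, and become usable only after an acyl-CoA synthetase has joined them to coenzyme A. The acyl-CoA esters are then held by acyl-CoA-binding protein and pass to triglyceride and phospholipid synthesis or to oxidation in mitochondria. ACC makes malonyl-CoA, which is both the building block of new fatty acids and the brake on the entry of long-chain acyl groups into mitochondria. Several of the genes are known targets of the nuclear receptors PPAR-alpha and PPAR-gamma, and Acsl5 and Dbi are also known targets of the sterol-regulated factors of the SREBP family.

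Of the 10 genes, Dbi was the only one called, and it was called only when both doses together were set against vehicle, with 1.30-fold the vehicle level. Acsl5 had 1.54-fold the vehicle level over both doses and did not pass. Cd36 had a mean above vehicle at each dose, within a spread between livers that was wider than in nearly all genes. Fabp1, Acsl1 and Slc27a2 lay within 1.06-fold of vehicle at each dose, and Fabp2, Acsl3 and Acsl4 differed by less than their spread. Fabp4 stayed below the filter threshold, the median of all values, on all 15 arrays.

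Where the data bear on a promoter, the 250 bases before the gene start are shown from RefSeq (build GRCr8), 5′ to 3′ on the strand of the gene. The first 3 belong to Dbi, Acsl5 and Cd36, the members with the largest mean differences from vehicle, and the fourth to Fabp1, whose promoter in the rat holds a known PPAR element. Capitals mark matches, on either strand, to the motifs searched: ATTGG (the CCAAT box), TATAAA (the TATA box) and AGGNCA, any base, AGGNCA (the direct repeat that PPAR dimers bind, with 1 free base in each copy). The Dbi window lies on the minus strand at chr13:33802619-33802868, that of Acsl5 on the plus strand at chr1:264294601-264294850, that of Cd36 on the plus strand at chr4:18246332-18246581 and that of Fabp1 on the plus strand at chr4:104749090-104749339.
Dbi: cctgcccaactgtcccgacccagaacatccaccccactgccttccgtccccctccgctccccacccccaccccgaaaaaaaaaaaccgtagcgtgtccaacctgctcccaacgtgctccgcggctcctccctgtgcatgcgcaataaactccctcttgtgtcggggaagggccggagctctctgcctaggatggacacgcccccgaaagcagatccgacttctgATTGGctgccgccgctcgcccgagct
Acsl5: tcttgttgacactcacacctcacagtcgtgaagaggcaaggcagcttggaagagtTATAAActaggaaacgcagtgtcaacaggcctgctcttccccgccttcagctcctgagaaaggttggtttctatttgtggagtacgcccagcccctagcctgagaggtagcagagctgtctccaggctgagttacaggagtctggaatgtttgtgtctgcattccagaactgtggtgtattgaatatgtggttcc
Cd36: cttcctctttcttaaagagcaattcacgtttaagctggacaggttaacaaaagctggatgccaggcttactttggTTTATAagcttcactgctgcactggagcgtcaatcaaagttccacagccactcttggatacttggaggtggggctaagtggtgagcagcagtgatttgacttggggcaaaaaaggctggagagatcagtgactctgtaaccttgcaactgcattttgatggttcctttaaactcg
Fabp1: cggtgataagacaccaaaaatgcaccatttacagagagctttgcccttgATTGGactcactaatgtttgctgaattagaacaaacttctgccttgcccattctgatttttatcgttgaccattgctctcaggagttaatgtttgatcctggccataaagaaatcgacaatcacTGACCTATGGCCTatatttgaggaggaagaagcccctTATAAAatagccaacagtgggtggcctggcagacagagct

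The Dbi window was rich in G and C, at 63.6% of bases against a median of 51.2% over all promoter windows of the same length, and its single match was an ATTGG 26 bases before the start. The Acsl5 and Cd36 windows, at 50.4% and 45.6%, each held 1 TATAAA. It lay from 195 to 190 bases before the start in Acsl5, and from 175 to 170 bases before it, on the minus strand, in Cd36. Of 33469 windows of all genes, 34.0% held ATTGG and 12.9% held TATAAA, so these matches are common. The direct repeat was rarer: the form in Fabp1, from 77 to 65 bases before its start, was found in 0.368% of windows. Another form of the repeat, AGNTCA, any base, AGNTCA, lay from 106 to 94 bases before the start of Fabp2 and in 0.131% of windows. Which factor binds these matches was not tested. The full repeat AGGTCA, any base, AGGTCA (0.0508% of windows), a sterol element TCACNCCAC (0.974%) and the E-box CACGTG (5.59%) matched in none of the windows of the 9 genes that had an entry. A match is a run of letters in this window, and no match says nothing of sites elsewhere. No promoter of Fabp4 was used here.

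The genes' levels were tested with limma, with p-values adjusted by the Benjamini-Hochberg method over all 9540 genes that passed a filter on dim probe sets, and an adjusted p under 0.05 counted as a call. Folds are powers of 2 of the difference between group means, and intervals are 95% confidence intervals of that fit. At 10 mg/kg against vehicle 0 of the 9 tested genes of the group were called, beside 10 of all genes (0.105%), and 3 of the 9 had an unadjusted p under 0.05 (13.3% of all genes). The higher dose gave 0 calls among them and 0 among all genes (0%), although 1535 of all genes and 2 of the 9 had an unadjusted p under 0.05 (16.1%). Both doses together against vehicle gave 14 called genes (0.147%), of which Dbi was 1, and an unadjusted p under 0.05 in 3 of the 9 (17.7%). The dose comparisons share the vehicle arrays, so they are not independent of each other.

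The means of 8 of the 9 genes were above vehicle at 10 mg/kg, where 41.8% of all genes were. The same held for 7 of 9 at 30 mg/kg, where 38% of all genes were. The 9 had a median log2 difference of 0.12 at the lower and 0.03 at the higher dose, beside -0.02 and -0.03 over all genes tested. Between the doses, 8 of the 9 had the lower mean at 30 mg/kg (54.4% of all genes), with 0 called and 1 at an unadjusted p under 0.05 (5.82% of all genes). The groups did not overlap, with treatment higher, for Dbi, Acsl5 and Fabp1 at 10 mg/kg (0.975% of all genes) and for Dbi at 30 mg/kg (0.849% of all genes).

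**Figure D1:**
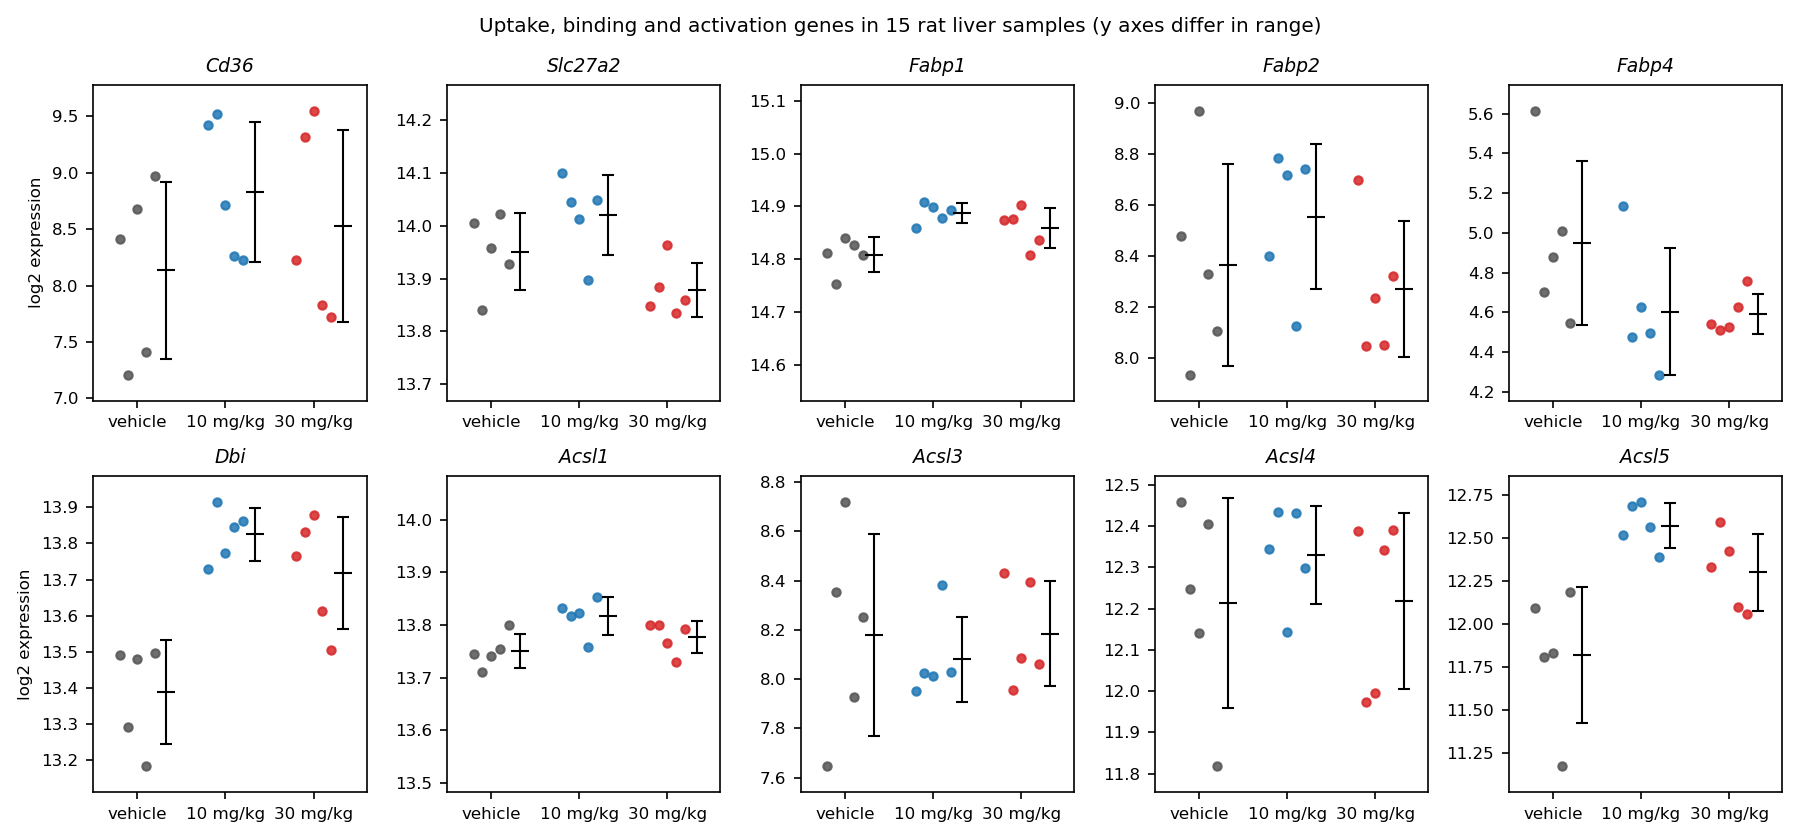
Log2 expression (y axes, which differ in range) of the 10 genes in each liver sample, by group (x axis). Points are samples in the order of their replicate numbers, and the black mark with its bar is the group mean ± SD (n = 5). All 10 treated Dbi points lie above the 5 vehicle points, Acsl5 separates fully at 10 mg/kg, and the Cd36 points overlap in every group.

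The level of Cd36, a scavenger receptor that takes up long-chain fatty acids and oxidised lipoproteins, was spread widely within every group. Vehicle samples 1 to 5 had log2 values of 8.41, 7.21, 8.68, 7.41 and 8.97. The samples at 10 mg/kg had 9.42, 9.52, 8.71, 8.26 and 8.23, and those at 30 mg/kg had 8.22, 9.32, 9.55, 7.83 and 7.72. In each treated group 2 of 5 samples stood above every vehicle sample, and the rest lay within the vehicle range. The mean was 1.62-fold the vehicle level at 10 mg/kg (interval 0.857 to 3.06, limma adjusted p = 0.512) and 1.31-fold at 30 mg/kg (0.695 to 2.48, limma adjusted p = 0.681). Over both doses it was 1.46-fold (0.840 to 2.53, limma adjusted p = 0.469), so the intervals hold both a lower level and more than a doubling. The pooled SD within groups was 0.757 on the log2 scale, larger than in 99.2% of genes. A second probe set, which the platform lists for both Cd36 and Cd36l1 and which therefore names no single gene, had log2 differences of 0.70 at 10 mg/kg and 0.37 at 30 mg/kg, beside 0.70 and 0.39 for the probe set of Cd36 alone.

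Cd36 is also made by macrophages, endothelium and adipocytes, and in whole liver fewer cells of a type and less RNA per cell cannot be told apart. As background to the marker counts, 41.8% of all genes had means above vehicle at 10 mg/kg and 38% at 30 mg/kg. The 12 endothelial markers on the array all had means below vehicle at both doses, with median log2 differences of -0.22 and -0.19 at the lower and higher dose and 0 called. Their summed level ran from 12.48 to 12.70 in vehicle, from 12.21 to 12.57 at 10 mg/kg and from 12.25 to 12.60 at 30 mg/kg, on the log2 scale. Of the 10 Kupffer cell and macrophage markers 9 had means below vehicle at each dose, with medians of -0.39 and -0.34 and 0 called, and summed levels of 12.91 to 13.45, 12.56 to 13.12 and 12.57 to 13.37. At 10 mg/kg 4 endothelial and 6 Kupffer cell and macrophage markers were lower at an unadjusted limma p under 0.05 (13.3% of all genes). At 30 mg/kg 4 and 2 were (16.1% of all genes), and over both doses 5 and 8 (17.7%). In both lists 0 were higher at that p. The means of Cd36 went the other way from most of these markers, whose part in its values was not tested. All 12 hepatocyte markers passed the filter, and 7 had means above vehicle at each dose, with median log2 differences of 0.007 and 0.006. At each dose 1 was higher and 1 lower at an unadjusted limma p under 0.05, and 0 were called. Their summed level stayed between 17.95 and 18.04 in all groups, but a linear sum mostly reads the brightest markers. Of 8 stellate, 4 leukocyte, 3 blood and 1 cholangiocyte marker tested, 0 were called at either dose; the means of 8 of the 8 stellate markers were below vehicle at 10 mg/kg and 5 of 8 at 30 mg/kg.

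Slc27a2, the fatty acid transport protein FATP2, which both takes up fatty acids and activates very long chains, kept a narrow range. Its values ran from 13.84 to 14.02 in vehicle with a median of 13.96, from 13.90 to 14.10 at 10 mg/kg and from 13.83 to 13.96 at 30 mg/kg. The 3 ranges overlapped. Its mean was 1.05-fold the vehicle level at 10 mg/kg (limma adjusted p = 0.567), while at 30 mg/kg vehicle was 1.05-fold higher (limma adjusted p = 0.484). The mean at 10 mg/kg was 1.10-fold that at 30 mg/kg, with an unadjusted limma p of 0.0107 and an adjusted p of 0.851.

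Among the binding proteins, Dbi was the gene that passed the test. It encodes acyl-CoA-binding protein, which holds long-chain acyl-CoA esters in the cytosol and delivers them to the enzymes that use them. Vehicle samples 1 to 5 had log2 values of 13.49, 13.29, 13.48, 13.18 and 13.50. The samples at 10 mg/kg had 13.73, 13.91, 13.77, 13.84 and 13.86, and those at 30 mg/kg had 13.76, 13.83, 13.88, 13.61 and 13.50. All 5 samples at 10 mg/kg lay clear of the vehicle range, and sample 5 at 30 mg/kg lay just above the highest vehicle sample. Over both doses 10 of 10 treated samples were above all vehicle samples, which held for 0.157% of all genes. The group means were 13.39 ± 0.14, 13.82 ± 0.07 and 13.72 ± 0.16 (SD, n = 5 each).

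Dbi rose 1.30-fold over both doses (interval 1.18 to 1.44, limma adjusted p = 0.0379). It had 1.35-fold the vehicle level at 10 mg/kg (1.20 to 1.52, limma adjusted p = 0.0556) and 1.26-fold at 30 mg/kg (1.12 to 1.41, limma adjusted p = 0.127), neither of which passed. The doses did not differ by more than the spread, with a log2 difference of -0.11 at 30 mg/kg against 10 mg/kg (limma adjusted p = 0.884). Leaving out 1 sample ended the call over both doses in 11 of 15 fits, while the log2 difference stayed between 0.33 and 0.41. The limma adjusted p was 0.0544, 0.108, 0.0620 and 0.124 without vehicle sample 1, 2, 3 or 4. It was 0.0902, 0.0658, 0.0681 and 0.0768 without sample 2, 3, 4 or 5 at 10 mg/kg, and 0.0645, 0.0666 and 0.0655 without sample 1, 2 or 3 at 30 mg/kg. At 10 mg/kg alone Dbi passed without vehicle sample 5 (limma adjusted p = 0.0437) and without sample 2 or 5 at 30 mg/kg (limma adjusted p = 0.0480 and 0.0365).

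Fabp1, the main fatty acid binding protein of the hepatocyte, had a small difference on a very tight measurement. Its values were 14.81, 14.75, 14.84, 14.83 and 14.81 in vehicle, 14.86, 14.91, 14.90, 14.88 and 14.89 at 10 mg/kg, and 14.87, 14.88, 14.90, 14.81 and 14.84 at 30 mg/kg. The 10 mg/kg samples all lay above the vehicle samples, and 3 of the 5 samples at 30 mg/kg did. Yet the difference amounted to 1.06-fold at 10 mg/kg (interval 1.003 to 1.11, limma adjusted p = 0.356), 1.04-fold at 30 mg/kg (limma adjusted p = 0.496) and 1.05-fold over both doses (limma adjusted p = 0.282). The pooled SD within groups was 0.031, larger than in only 0.157% of genes. The highest value in the deposited table was 15.38, and whether signals this bright are compressed was not tested.

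Fabp2, the intestinal fatty acid binding protein, passed the filter in liver at 8.37 ± 0.40 in vehicle, 8.55 ± 0.28 at 10 mg/kg and 8.27 ± 0.27 at 30 mg/kg (SD, n = 5 each). Its vehicle samples ran from 7.94 to 8.97, a range that held every treated sample. Limma adjusted p was 0.690 and 0.845 at the lower and higher dose, and 0.909 over both. Of the enterocyte markers on the array Vil1, Cdx2, Si, Alpi and Slc5a1 were below the filter in these livers, while Cdh17 and Apoa4, which rat liver also expresses, passed it.

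Fabp4, the binding protein of adipocytes and macrophages, ran from 4.54 to 5.61 in vehicle, from 4.29 to 5.13 at 10 mg/kg and from 4.51 to 4.76 at 30 mg/kg. All 15 values lay below the filter threshold of 6.10, which is the median of all values in the table and not a detection limit. Vehicle sample 1 was the highest, and the groups overlapped. With no filter, limma gave log2 differences of -0.35 at 10 mg/kg (adjusted p = 0.473 over 14217 genes) and -0.36 at 30 mg/kg (adjusted p = 0.326). Over both doses the log2 difference was -0.35 (interval -0.67 to -0.031, limma adjusted p = 0.272). Values this dim understate a change. The adipocyte markers Adipoq, from 4.05 to 4.43, Plin1, from 4.97 to 5.33, and Lep, from 4.26 to 4.83, were below the threshold on every array too, while Cfd and Lipe passed the filter. The macrophage and endothelial markers given above had lower means as well, and their part in the values of Fabp4 was not tested.

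Among the acyl-CoA synthetases Acsl5 had the widest separation. This enzyme of the endoplasmic reticulum and mitochondria activates fatty acids, and in rodent liver it is known to be induced by insulin through SREBP-1c. Vehicle samples 1 to 5 had log2 values of 12.09, 11.81, 11.83, 11.17 and 12.19. The samples at 10 mg/kg had 12.52, 12.69, 12.71, 12.56 and 12.39, and those at 30 mg/kg had 12.33, 12.60, 12.42, 12.10 and 12.06. Every sample at 10 mg/kg stood above every vehicle sample, and at 30 mg/kg 3 of 5 did. Vehicle sample 4 was the lowest of all 15.

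The mean of Acsl5 was 1.69-fold the vehicle level at 10 mg/kg (interval 1.34 to 2.14, limma adjusted p = 0.0919), 1.40-fold at 30 mg/kg (1.11 to 1.77, limma adjusted p = 0.193) and 1.54-fold over both doses (1.25 to 1.88, limma adjusted p = 0.0749). The intervals exclude equal levels, but the test across all genes was not passed. It was passed without vehicle sample 5, the highest of its group (limma adjusted p = 0.0470 at 10 mg/kg and 0.0369 over both doses), and in no other fit with 1 sample left out. Without vehicle sample 4 the log2 difference at 10 mg/kg was 0.59. A second probe set of Acsl5 had smaller log2 differences, 0.40 at 10 mg/kg and 0.14 at 30 mg/kg, with overlapping groups (limma adjusted p = 0.320 and 0.674 over all filtered probe sets).

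The other synthetases showed smaller differences. Acsl1, the main long-chain synthetase of liver and a PPAR-alpha target, ran from 13.71 to 13.80 in vehicle, from 13.76 to 13.85 at 10 mg/kg and from 13.73 to 13.80 at 30 mg/kg. At 10 mg/kg 4 of 5 samples exceeded all vehicle samples, and the mean was 1.05-fold the vehicle level (interval 0.993 to 1.10, limma adjusted p = 0.439). The fold was 1.02 at 30 mg/kg (limma adjusted p = 0.743). A second probe set gave log2 differences of 0.10 and 0.04, and the third was below the filter, between 3.77 and 4.10. The probe set that stood for Acsl1 had a pooled SD of 0.033, smaller than in all but 0.178% of genes. Its interval at 10 mg/kg had an upper limit of 1.10-fold. The interval of the second probe set was wider, from -0.042 to 0.24 as a log2 difference. Whether signals this bright are compressed was not tested.

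Acsl3, an isoform of the endoplasmic reticulum and of lipid droplets, averaged 8.18 ± 0.41 in vehicle, 8.08 ± 0.17 at 10 mg/kg and 8.19 ± 0.21 at 30 mg/kg (SD, n = 5 each). Its vehicle samples ran from 7.65 to 8.72 and enclosed every treated sample (limma adjusted p = 0.832 and 0.991 at the lower and higher dose). Acsl4, which prefers arachidonic acid, averaged 12.21 ± 0.25, 12.33 ± 0.12 and 12.22 ± 0.21 in the same order. Its vehicle samples, from 11.82 to 12.46, also enclosed every treated sample (limma adjusted p = 0.708 and 0.990). The Acsl3 interval over both doses ran from 0.785-fold to 1.19-fold and that of Acsl4 from 0.895-fold to 1.22-fold, so larger differences than these fall outside them.

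**Figure D2:**
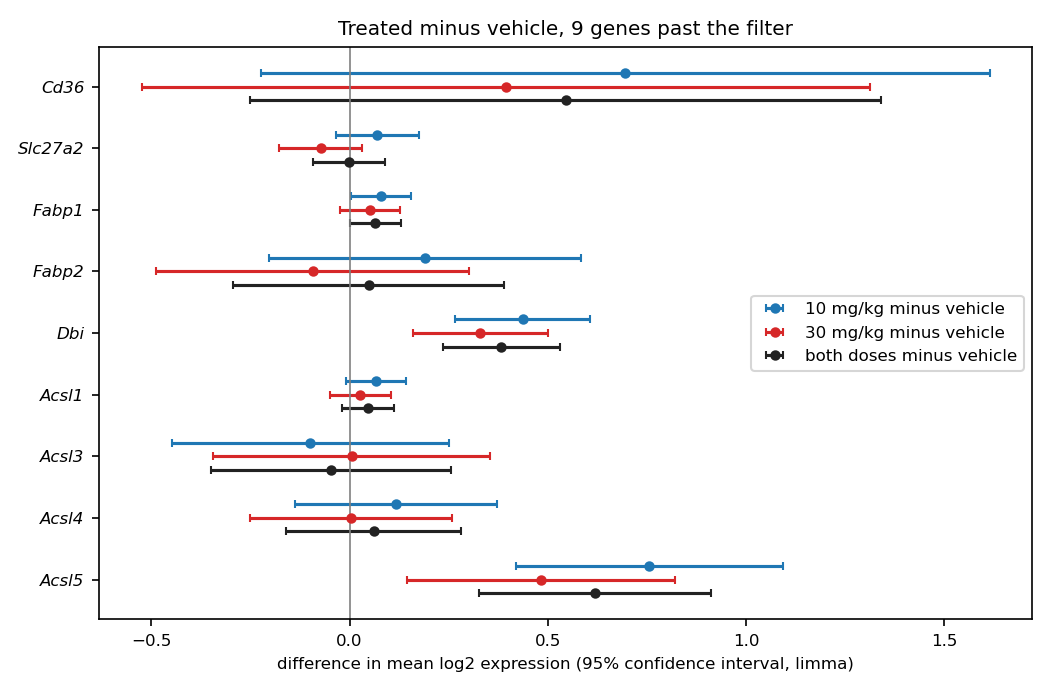
Differences in mean log2 expression (x axis) of the 9 genes past the filter (y axis) at each dose and over both doses against vehicle, with 95% confidence intervals from limma (5 samples a group). The intervals of Dbi and Acsl5 lie above 0 in all 3 comparisons, those of Cd36 are the widest and include 0, and those of Fabp1, Acsl1 and Slc27a2 are narrow.

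Within groups the genes also varied from liver to liver, and by ranks the deviations of Dbi went with those of Acsl5 and of Cd36, mainly in the vehicle and 30 mg/kg livers. Deviations of each sample from its group mean were compared over the 15 arrays, which share libraries between the genes, for all 36 pairs of the 9 genes, with permutations within groups. For Dbi and Acsl5, Pearson's r was 0.78 (permutation p = 0.00289, adjusted p = 0.104) and Spearman's rho was 0.84 (permutation p = 0.00118, adjusted p = 0.0317). Dbi and Cd36 had r = 0.74 (permutation p = 0.0104, adjusted p = 0.125) and rho = 0.85 (permutation p = 0.00176, adjusted p = 0.0317). For Cd36 and Acsl5 r was 0.69 (permutation p = 0.00812, adjusted p = 0.125) and rho 0.77 (permutation p = 0.0066, adjusted p = 0.0792). By ranks the first 2 pairs therefore passed after adjustment and the third did not, and by Pearson's r none did. The adjustment covered the 36 pairs only, and how many other genes of the array go as closely with Dbi was not counted. All 3 genes lay on 1 side of their group mean in 5 of 5 vehicle livers and 4 of 5 at 30 mg/kg, but in 1 of 5 at 10 mg/kg, so the pooled values do not describe that group. These counts restate the same deviations and are no separate evidence, and whether the groups differ in this was not tested. Some rest on values close to the mean, as for Acsl5 in vehicle samples 2 and 3, at -0.04 and 0.06 pooled SD. Without the 2 samples farthest from the median of the first gene the r values were 0.62, 0.67 and 0.64. That of Dbi and Fabp1, a pair that did not pass, went from 0.59 to 0.85 in the same way.

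The livers below their group mean in all 3 genes were vehicle samples 2 and 4 and samples 4 and 5 at 30 mg/kg. In units of the pooled SD, vehicle sample 4 stood at -1.58 for Dbi, -2.36 for Acsl5 and -0.96 for Cd36, and sample 5 at 30 mg/kg at -1.65, -0.89 and -1.07. Above it in all 3 were vehicle samples 1, 3 and 5, sample 2 at 10 mg/kg and samples 2 and 3 at 30 mg/kg. In Scd, stearoyl-CoA desaturase, vehicle sample 5 stood apart, with a log2 value of 11.71 where vehicle samples 1 to 4 had 6.82, 7.44, 8.94 and 7.16. Vehicle sample 1, above its group mean in all 3 genes, thus had the lowest Scd value of its group. Samples 1 to 5 had Scd values of 12.16, 12.22, 12.61, 13.57 and 12.89 at 10 mg/kg. At 30 mg/kg they had 11.48, 14.14, 13.13, 11.84 and 10.77. Whether Scd goes with the 3 genes was not tested.

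**Figure D3:**
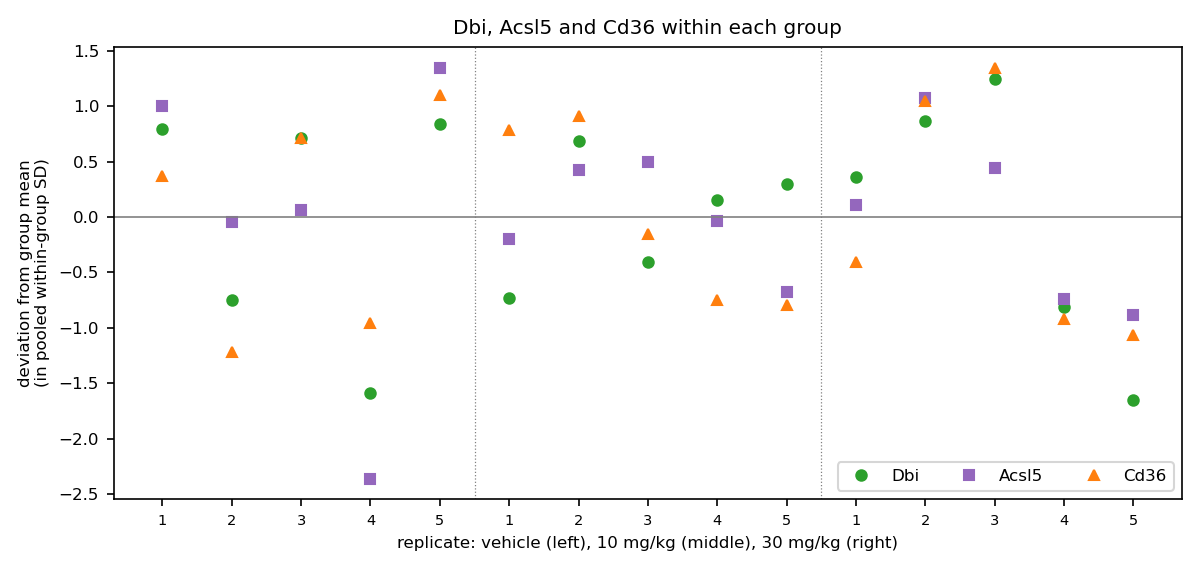
Deviation of each liver sample from its group mean (y axis, in pooled within-group SD of the gene) for Dbi, Acsl5 and Cd36, by replicate number within the 3 groups (x axis, groups divided by dotted lines). Vehicle sample 4 and samples 4 and 5 at 30 mg/kg lie below 0 for all 3 genes, and samples 2 and 3 at 30 mg/kg lie above 0 for all 3.

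Over the same deviations and 15 arrays, the 2 genes of the whole array most like Dbi were Tsnax (r = 0.92) and Fads1 (r = 0.91), a fatty acid desaturase. Those most like Acsl5 were Rab11fip1 (r = 0.89) and Ube2l6 (r = 0.87), and those most like Cd36 were Agxt (r = 0.89) and Tent5c (r = 0.84). For Fabp1 they were Ttc9c (r = 0.91) and Atg16l1 (r = 0.88), for Fabp2 Smim15 (r = 0.89) and Lcat (r = 0.88), and for Slc27a2 Ppih (r = 0.85) and Whamm (r = 0.82). For Acsl1 they were Dnajc13 (r = 0.88) and Anp32a (r = 0.86), for Acsl3 Brd10 (r = 0.88) and Rab7a (r = 0.85), and for Acsl4 Ubxn8 (r = 0.84) and Atp5if1 (r = 0.82). These are the best of 9539 other genes for each gene over few arrays, and are given as a description. None of the 9 genes was among the 2 most like another of them.

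The rest of the pathway was read from a list of 33 other uptake, binding and activation genes, of which 30 were on the array and 23 passed the filter. In every comparison 0 of them were called. Over both doses 1 was higher and 4 were lower at an unadjusted p under 0.05 (17.7% of all genes in either direction), and the median log2 difference was -0.01 beside -0.03 over all genes. By the rule that took the largest differences of each list, Slc27a5 and Scarb1 stand for uptake, Fabp5 and Fabp7 for binding and Acsm3 and Acsm2 for activation.

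Fabp5, the epidermal fatty acid binding protein, had the largest difference of the binding genes. Its values were 8.17, 7.70, 8.05, 7.98 and 8.09 in vehicle, 9.18, 9.58, 9.77, 10.01 and 8.82 at 10 mg/kg, and 8.58, 10.39, 9.80, 9.04 and 8.12 at 30 mg/kg. The 10 mg/kg samples were all above the vehicle samples, and at 30 mg/kg sample 5 fell within the vehicle range. The mean was 2.78-fold the vehicle level at 10 mg/kg (interval 1.67 to 4.62, limma adjusted p = 0.119), 2.28-fold at 30 mg/kg (1.37 to 3.79, limma adjusted p = 0.163) and 2.52-fold over both doses (1.62 to 3.91, limma adjusted p = 0.0756). It passed at 10 mg/kg without sample 2 at 30 mg/kg (limma adjusted p = 0.0480) and when only those 2 groups were fitted (0.0255), and over both doses without sample 5 at 30 mg/kg (0.0289). Macrophages are a known source of Fabp5, and the macrophage markers given with Cd36 above had lower means; their part in the values of Fabp5 was not tested.

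Fabp7, the brain fatty acid binding protein, averaged 12.98 ± 0.20 in vehicle, 12.69 ± 0.26 at 10 mg/kg and 12.66 ± 0.27 at 30 mg/kg (SD, n = 5 each; limma adjusted p = 0.215 over both doses). Acsm3, a medium-chain acyl-CoA synthetase of mitochondria, ran from 7.97 to 9.05 in vehicle, from 7.39 to 7.76 at 10 mg/kg and from 7.04 to 9.03 at 30 mg/kg. Its 10 mg/kg samples were all below the vehicle samples, which held for 1.47% of genes, and vehicle was 2.02-fold higher (limma adjusted p = 0.235). At 30 mg/kg samples 4 and 5 lay in the vehicle range (limma adjusted p = 0.339).

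Acsm2, another medium-chain synthetase, was too spread to place, with samples at 30 mg/kg from 4.88 to 9.50 (limma adjusted p = 0.675 over both doses). Slc27a5, the bile acid and fatty acid transport protein FATP5, averaged 11.98 ± 0.68, 12.26 ± 0.33 and 12.25 ± 0.54 in vehicle and at the lower and higher dose (SD, n = 5 each; limma adjusted p = 0.616 over both doses). Scarb1, the receptor for high-density lipoprotein, averaged 10.41 ± 0.19, 10.24 ± 0.16 and 10.14 ± 0.07 in the same order (SD, n = 5 each; limma adjusted p = 0.180 over both doses). Its treated and vehicle samples overlapped at both doses.

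**Figure D4:**
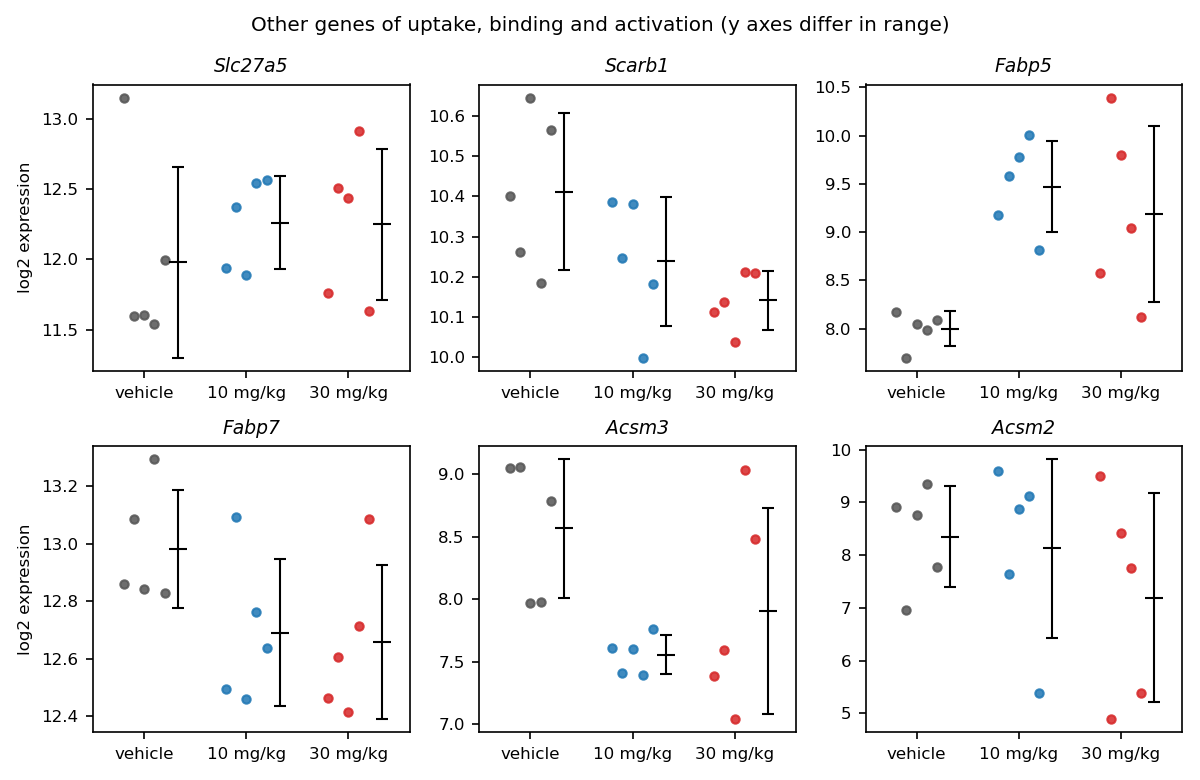
Log2 expression (y axes, which differ in range) of 6 other uptake, binding and activation genes in each liver sample, by group (x axis), with the group mean ± SD in black (n = 5). Fabp5 is higher and Acsm3 lower in all samples at 10 mg/kg than in vehicle, while the samples at 30 mg/kg spread over both ranges.

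Several of these genes are PPAR targets, and a list of 21 tested PPAR-alpha target genes, which holds none of the 10, had 19 means above vehicle at 10 mg/kg (41.8% of all genes) and 7 at 30 mg/kg (38%). From 10 to 30 mg/kg 20 of the 21 had the lower mean (54.4% of all genes), and 0 were called in any of these comparisons. Of 12 genes of fatty acid synthesis and desaturation and their regulation, many of them SREBP targets, 12 had means above vehicle at each dose, with median log2 differences of 1.01 and 0.92, and 11 and 10 had an unadjusted p under 0.05 (13.3% and 16.1% of all genes). Fads1 was called at 10 mg/kg (limma adjusted p = 0.0427), and Fads1 and Scd over both doses (limma adjusted p = 0.0205 and 0.0361). Of 4 tested PPAR-gamma targets, which include Fabp5, 3 had means above vehicle at 10 mg/kg and 2 at 30 mg/kg, and of 14 regulators 5 and 4 did, with 0 called. Ppara itself ran from 6.12 to 6.33 in vehicle and from 5.73 to 6.28 over the treated samples, near the filter threshold (limma adjusted p = 0.237 over both doses). Pparg ran from 6.35 to 7.38 in vehicle and from 6.07 to 6.66 over the treated samples (limma adjusted p = 0.204 over both doses).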

How the data were processed

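The deposited table holds log2 values for 31099 probe sets on 15 arrays, which the authors had summarised and normalised before deposit. Per the submitters' processing notes the tools were RMA, GCRMA 2.12.1 and limma 2.14.7; the summarising step is not given in the sources. Arrays set to a common distribution hide any shift that most genes share, and dim values understate change. Array medians lay between 6.08 and 6.12, arrays correlated at 0.989 to 0.996, and 0 pairs were identical.

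Groups came from the sample titles. Genes were named from the platform annotation, updated to current RefSeq symbols: 20826 probe sets had 1 symbol, 436 several and 9780 none. A probe set was kept when the 5 highest of its 15 values exceeded the median of all values (6.10), which left 15939, and the brightest kept probe set of 1 symbol stood for its gene (9540 genes). All 15 arrays entered 1 fit of group means (limma 3.58.1, R 4.3.3), with eBayes and Benjamini-Hochberg adjustment, and the steps were tested on simulated data. Pair correlations used 100000 permutations. Marker levels were summed on the linear scale and given as log2. All members are named; of the other pathway genes, those called plus the 2 largest differences over both doses per list; and per member the 2 best correlated genes. Other context and marker lists are given by counts. The members and lists were chosen with earlier results of these data known. Alternatives covered the filter, normalisation, probe set choice, array weights, variance options, a replicate block, the groups fitted and each sample left out. No scan date or batch was used here.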

Additional observations from a re-analysis of the deposited data

Results flagged for a closer look

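Of 42 sets of 5 samples examined, which are the values of each probe set in each group, 1 had a sample far from the others. Chance flags about 1 in 20 such sets. It was Acsl3 at 10 mg/kg, where sample 4 had a log2 value of 8.38 and the others ran from 7.95 to 8.03. That sample lay within the vehicle range of Acsl3, and without it the gene was still not called.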

How the results depend on the processing

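The call of Dbi over both doses was kept with each filter, normalisation, variance option and choice of probe sets varied alone (limma adjusted p up to 0.0482). It was lost with array weights (0.0538) and, in an alternative added after seeing the data, with all 31042 probe sets and no filter (0.0513), which called 0 genes at 10 mg/kg, 8 at 30 mg/kg and 24 over both doses, and 0 members. With the replicate number as a block it was 0.0977, 0 members were called over both doses and 0 and 3 genes at 10 mg/kg and over both doses. Same-numbered samples had deviations correlated over 0.1 in 3 of 15 pairs (-0.07 to 0.19). In 3 of 15 samples the best correlation was with their own number. No reference was drawn for these counts, so they do not decide whether the numbers pair the samples.

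At 10 mg/kg 3 genes were called with no filter and 16 with all filtered probe sets, and 1 member, Dbi, with trend and robust options (limma adjusted p = 0.0415). At 30 mg/kg 1 gene was called with array weights, which called 7 genes and 0 members over both doses, and 10 with all filtered probe sets, which called 25 over both doses. Over both doses 8 of 14 calls were higher, against 14 of 20 with quantile normalisation and 9 of 19 with centring. Signs turned for Acsl3 and Acsl4 at 30 mg/kg with centring (-0.0091 and -0.010), Acsl3 with array weights (-0.057), and Slc27a2 over both doses with quantile normalisation (0.012) and array weights (0.0069). The causes were not tested.

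With 1 sample left out, calls ran from 0 to 26 genes and 0 to 2 members at 10 mg/kg, 0 to 5 genes at 30 mg/kg, and 0 to 85 genes and 0 to 2 members over both doses. Log2 differences that changed sign ran at 10 mg/kg from -0.23 to 0.035 (Acsl3) and -0.59 to 0.46 (Acsm2). At 30 mg/kg they ran from -0.13 to 0.14 (Acsl3), -0.20 to 0.058 (Fabp2) and -0.095 to 0.065 (Acsl4), and between the doses from -0.18 to 0.14 (Slc27a5) and -0.14 to 0.068 (Fabp7). Over both doses they ran from -0.029 to 0.017 (Slc27a2), -0.059 to 0.20 (Fabp2), -0.18 to 0.087 (Acsl3) and -0.038 to 0.12 (Acsl4). For genes over both doses, the fit of only the compared groups is the fit reported. Dim values limit Fabp4.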
